A study of Rattus norvegicus with 16 samples.

Results

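Fructose on the high-salt diet was read from 8 of the 16 arrays of the study, those of 4 rats given 20% fructose in the drinking water (FHS, rats 13 to 16) and of 4 rats given plain water (CHS, rats 9 to 12), all on chow with 4% NaCl. The animals were outbred male Sprague-Dawley rats, 7 weeks old by their labels, and carried no transgene or other allele. The diets lasted 7 days, after which total RNA of the superficial renal cortex was hybridized to 1 array per rat. The other 8 rats received a normal-salt chow of another maker with fructose (FNS, rats 5 to 8) or water (CNS, rats 1 to 4), so that fructose could be examined on each base diet. The comparison covers 36685 TranscriptClusterIDs, the array's gene-level features, and 18367 gene symbols, each represented by its TranscriptClusterID of highest mean. The question was which genes differ with fructose when the base diet is high in salt, and whether the same genes differ on the normal-salt diet.

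Fructose enters proximal tubule cells through the transporters Slc2a5 (GLUT5) and Slc5a10 (SGLT5) and is phosphorylated by ketohexokinase, which starts a pathway that bypasses the controlled step of glycolysis and feeds glucose, fat and lactate production. The proximal tubule, which makes up most of the cortex, also makes glucose from lactate and glutamine and burns fatty acids for its transport work. Its cells divide rarely in the adult but still do so in the growing kidney of a young rat, and a dividing cell switches on DNA replication genes before mitosis genes.

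The values are log2 signals from robust multi-array average (RMA), and they ranged from 1.76 to 13.8. A change is the difference of 2 group means on this scale, fructose minus water, with its standard error (SE) from limma fitted to all 16 arrays, and an adjusted p is that of limma after the Benjamini and Hochberg correction over all TranscriptClusterIDs. The labelled tissue was checked on 10 marker genes of proximal tubule segments S1 and S2, such as Slc5a2, Slc34a1 and Lrp2. Their mean signal was 11.82 to 12.11 in CHS and 11.56 to 12.20 in FHS, and none of them passed an unadjusted p under 0.05. The median over all TranscriptClusterIDs was 5.25 to 5.34 in the CHS arrays and 5.33 to 5.44 in the FHS arrays (exact permutation test, two-sided, p = 0.0857, where the smallest possible is 0.0286), and over TranscriptClusterIDs with a gene symbol the difference was 0.004. The median change was 0.06 among the 4592 dimmest gene symbols and −0.06 among the 4592 brightest, so that the change of a bright gene list has to be read against a value slightly below 0. The array of rat 14 stood apart, with the highest median (5.44) and the lowest mean correlation with its group (0.978). The labels place 2 rats in a cage but give no cages, and the p-values treat the rats as independent.

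In the test over the whole array an adjusted p under 0.05 was reached by 1 TranscriptClusterID (0.00273%), by 0 without rat 13 and by 0 when the 8 high-salt arrays were fitted alone. There were 28 (0.0763%) with an adjusted p under 0.10, of which 15 were higher and 13 lower with fructose (1 to 46 when single rats were left out), and 3530 (9.62%) with an unadjusted p under 0.05. When the 18367 gene symbols were fitted by themselves, which corrects for fewer tests, 25 genes (0.136%) passed an adjusted p of 0.05, of which 10 were higher and 15 lower. When dim TranscriptClusterIDs were left out in place of unnamed ones, 22 (0.12%) passed, and 15 of the 25 genes were among them. The genes below are reported with both counts in view, and none of those named passed an adjusted p of 0.05 in the test over the whole array. List counts below can be read against all gene symbols, of which 51.1% had a change above 0 and 48.9% below. At an unadjusted p under 0.05, 4.43% were higher and 4.79% lower.

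The mitosis genes were the most uniform group. All 30 measured members had a lower mean with fructose, where 48.9% of all gene symbols did and 51.1% had a higher one. Of the 30, 26 were lower at an unadjusted p under 0.05, where 4.79% of all gene symbols were. The median change was −0.61, against 0.00 over all TranscriptClusterIDs with a gene symbol. In 23 of the 30 every fructose rat lay below every water rat, where 3.29% of all gene symbols did so. The members ranged from −1.07 for the spindle checkpoint kinase Ttk to −0.05 for the centrosomal kinase Aurka (both named after their values were seen). No member passed an adjusted p of 0.05 in the test over the whole array, and Top2a, Mki67, Nuf2 and Prc1 did when the gene symbols were fitted by themselves.

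Top2a, the topoisomerase that untangles sister chromosomes, had signals of 8.81, 8.46, 8.52 and 8.45 in rats 9 to 12 and of 7.81, 7.69, 7.59 and 7.81 in rats 13 to 16. Its change was −0.83 (SE 0.13, adjusted p = 0.09). Mki67, the proliferation antigen Ki-67 that coats mitotic chromosomes, had 9.53, 9.15, 9.25 and 9.17 with water and 8.36, 8.25, 8.21 and 8.70 with fructose, a change of −0.90 (SE 0.16, adjusted p = 0.095). For both genes the 4 fructose rats on high salt lay below all other 12 rats of the study. Nuf2, a kinetochore subunit that holds microtubules, was at 6.20 to 6.88 with water and 5.54 to 5.94 with fructose. Prc1, which bundles the microtubules of the dividing cell's midzone, was at 7.48 to 8.15 and 6.72 to 7.04.

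Genes of the same kind that the mitosis list does not hold stood among the 15 lower genes of smallest p. Ncapg, a subunit of the condensin that compacts chromosomes, had signals of 6.86, 6.30, 6.59 and 6.21 with water and 5.47, 5.72, 5.45 and 5.84 with fructose (change −0.87, SE 0.14). Aspm, a spindle pole protein, had a change of −0.75 (SE 0.13) and the mitotic kinase Pbk of −1.05 (SE 0.18). Esco2, which acetylates cohesin to hold sister chromatids together, had a change of −1.001 (SE 0.18), Depdc1 of −1.16 (SE 0.21) and the GTPase-activating protein Arhgap11a of −0.94 (SE 0.18). In each of these 6 genes no fructose rat reached the lowest water rat, and all had an adjusted p between 0.09 and 0.10 in the test over the whole array.

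Genes of DNA replication were lower by a smaller amount. Of 25 measured members, 23 had a change below 0 and 13 were lower at an unadjusted p under 0.05, with a median of −0.30, and the groups did not overlap in 8. Rrm2, the regulated subunit of the reductase that makes deoxynucleotides, was furthest from 0. Its signals were 8.95, 8.69, 8.35 and 8.69 with water and 7.98, 6.95, 7.19 and 7.83 with fructose, a change of −1.19 (SE 0.22, adjusted p = 0.105). Pola1, the catalytic subunit of the polymerase that starts new strands, had a change of −0.44 (SE 0.10), the sliding clamp Pcna of −0.50 (SE 0.12) and the flap nuclease Fen1 of −0.51 (SE 0.12). Bulk RNA cannot tell fewer dividing cells from less of these transcripts per cell.

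**Figure D1:**
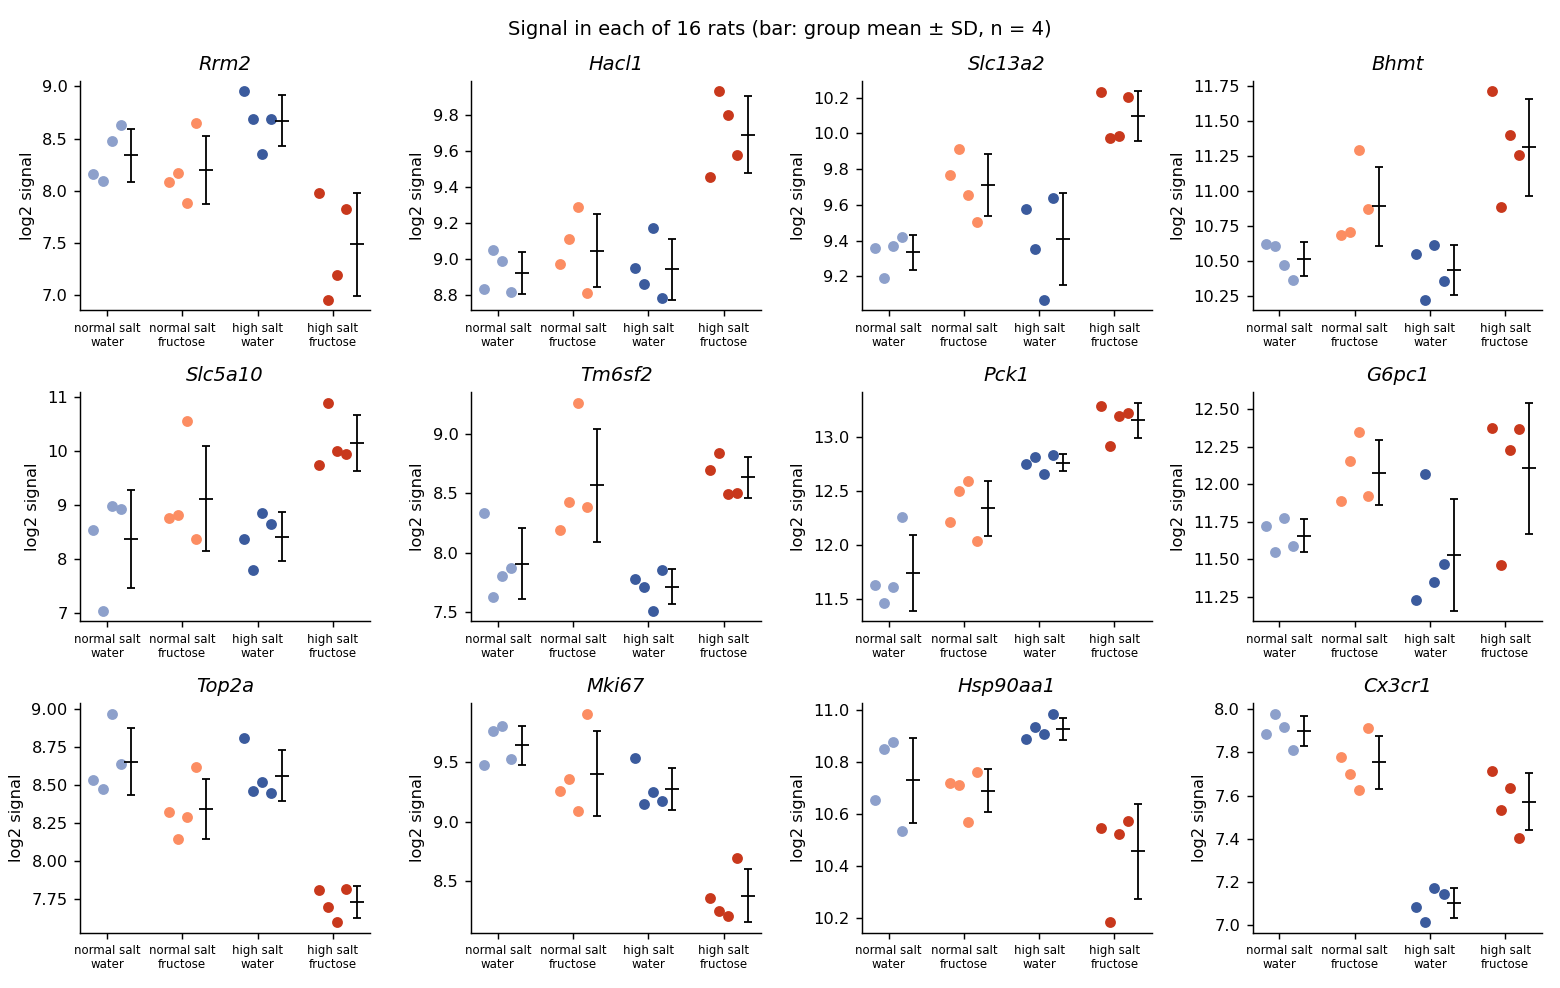
Log2 signal of 12 genes (vertical axes) in each of the 16 rats, grouped by base diet and drink, with the group mean and SD (n = 4) to the right of the points. The 4 FHS points lie above all CHS points for Hacl1, Slc13a2, Bhmt, Slc5a10, Tm6sf2, Pck1 and Cx3cr1 and below them for Rrm2, Top2a, Mki67 and Hsp90aa1, while for G6pc1 rat 14 lies at 11.46 among the water rats.

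**Figure D2:**
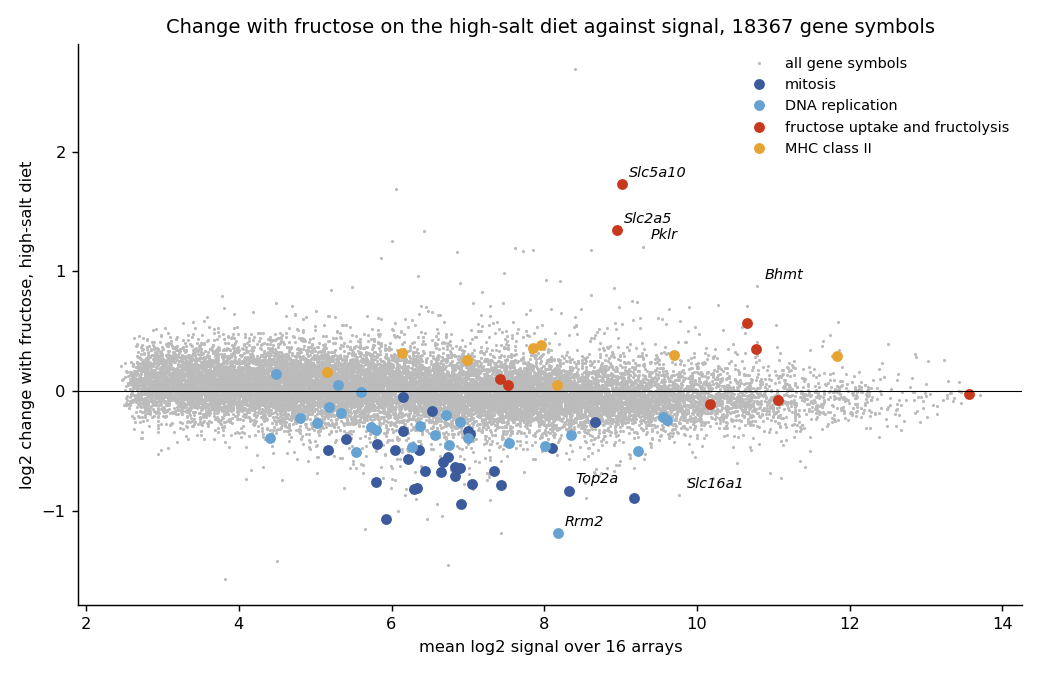
Log2 change with fructose on the high-salt diet (vertical axis) against the mean log2 signal over 16 arrays (horizontal axis) for 18367 gene symbols, with members of 4 lists coloured. The mitosis genes lie below 0 at all signal levels, and the grey cloud of all genes tilts from a median of 0.06 among the 4592 dimmest to −0.06 among the 4592 brightest.

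The promoters of these genes were searched for 2 kinds of motif, since mitosis and replication genes are known to be timed through different elements. RefSeq promoters (build GRCr8, 250 bases before to 50 after the start) were found for 24 of the 30 mitosis genes and 19 of the 25 replication genes. The cell cycle homology region TTTGAA, read on both strands, was in 16 of the 24 mitosis promoters (66.7%), in 1 of the 19 replication promoters (5.3%) and in 18.1% of all 27457 promoters of the same length. The CCAAT box, CCAAT on either strand, was in 17 of the 24 (70.8%) against 37.7% of all promoters, and both motifs were in 13 (54.2% against 7.3%). The E2F motifs TTTCCCGC, TTTGGCGC and TTTCGCGC were in 9 of the 19 replication promoters (47.4%), in 1 of the 24 mitosis promoters (4.2%) and in 1.8% of all. These are shares of matching letters, and binding was not measured. The 4 mitosis genes of smallest p that had a promoter entry and Pola1, the replication gene of smallest p with an E2F match, are shown 5′ to 3′ on the strand of the gene, with TTTGAA and CCAAT of either strand in capitals in the former and the E2F match in capitals in Pola1. In Mki67 a TTTGAA and a CCAAT of the other strand share bases.
Top2a, chr10:84473044-84473343, minus strand: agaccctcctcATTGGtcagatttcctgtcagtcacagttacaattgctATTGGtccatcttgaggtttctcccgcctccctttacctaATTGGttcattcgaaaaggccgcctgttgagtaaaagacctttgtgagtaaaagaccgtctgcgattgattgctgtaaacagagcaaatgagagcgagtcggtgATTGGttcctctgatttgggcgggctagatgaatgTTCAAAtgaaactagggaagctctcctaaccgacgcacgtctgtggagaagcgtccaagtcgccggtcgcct
Mki67, chr1:199952544-199952843, minus strand: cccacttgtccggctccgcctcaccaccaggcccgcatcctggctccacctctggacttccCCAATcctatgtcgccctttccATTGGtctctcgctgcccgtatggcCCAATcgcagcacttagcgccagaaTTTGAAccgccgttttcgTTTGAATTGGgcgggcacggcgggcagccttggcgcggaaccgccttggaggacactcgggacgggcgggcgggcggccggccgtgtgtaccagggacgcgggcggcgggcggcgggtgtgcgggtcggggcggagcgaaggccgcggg
Prc1, chr1:143659231-143659530, plus strand: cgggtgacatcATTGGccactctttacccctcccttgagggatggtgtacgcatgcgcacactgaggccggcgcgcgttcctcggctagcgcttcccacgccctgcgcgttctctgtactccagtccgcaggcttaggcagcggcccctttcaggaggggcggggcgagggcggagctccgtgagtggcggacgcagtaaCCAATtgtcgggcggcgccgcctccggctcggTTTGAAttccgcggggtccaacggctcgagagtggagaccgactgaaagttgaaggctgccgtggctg
Nuf2, chr13:84255549-84255848, minus strand: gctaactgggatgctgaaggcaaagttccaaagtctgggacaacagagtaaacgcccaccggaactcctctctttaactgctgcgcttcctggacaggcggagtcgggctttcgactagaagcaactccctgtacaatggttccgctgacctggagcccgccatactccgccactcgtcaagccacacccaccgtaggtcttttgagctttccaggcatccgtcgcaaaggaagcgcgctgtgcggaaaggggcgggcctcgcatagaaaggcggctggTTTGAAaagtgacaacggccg
Pola1, chrX:62342306-62342605, minus strand: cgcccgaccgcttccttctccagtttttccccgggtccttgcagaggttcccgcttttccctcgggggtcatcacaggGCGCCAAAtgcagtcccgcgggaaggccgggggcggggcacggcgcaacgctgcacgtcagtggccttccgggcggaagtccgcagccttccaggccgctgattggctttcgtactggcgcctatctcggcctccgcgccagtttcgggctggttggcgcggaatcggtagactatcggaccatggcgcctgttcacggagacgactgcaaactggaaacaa

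The TTTGAA match began 22 bases before the start in Top2a and 18 bases before it in Prc1, and 29 bases after it in Nuf2, while Mki67 had 2 matches, at 117 and 99 bases before the start. Nuf2 had no CCAAT in this window.

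On the normal-salt diet all 30 mitosis genes were also below 0, with a median of −0.25, where 50.7% of all gene symbols were. The 2 comparisons share no rats. The change of Top2a was −0.31 (SE 0.13) there, that of Mki67 −0.24 (SE 0.16) and that of Rrm2 −0.14 (SE 0.22). The test of the difference between the diets was at an unadjusted p under 0.05 for 5 of the 30 mitosis genes and 4 of the 25 replication genes, where 4.86% of all gene symbols were, and for none after adjustment. Over all 18367 gene symbols, the changes on both diets correlated at 0.09 across genes, which are not independent replicates, and 52.2% had the same sign.

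Of 9 measured genes of fructose uptake and breakdown, 6 had a change above 0 and 3 below. Slc5a10, Slc2a5, Khk and Tkfc, 4 of the 9, were higher and none lower at an unadjusted p under 0.05, where 4.43% of all gene symbols were higher at that threshold. Slc5a10, a sodium-coupled fructose and mannose transporter of the apical membrane, had signals of 8.38, 7.79, 8.85 and 8.66 with water and 9.75, 10.90, 10.0015 and 9.95 with fructose, so that the groups did not overlap, where 2.68% of all gene symbols were higher without overlap. Its change of 1.73 (SE 0.47, adjusted p = 0.283) was a 3.32-fold higher signal. Slc2a5, the facilitative fructose transporter, had 7.77, 7.99, 9.33 and 8.08 with water and 9.12, 10.79, 9.25 and 9.40 with fructose. Here rat 11 on water overlapped the fructose rats, and the change was 1.35 (SE 0.53).

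Downstream of uptake, the ketohexokinase Khk had a change of 0.35 (SE 0.15) and the triokinase Tkfc, which phosphorylates glyceraldehyde from fructose, of 0.56 (SE 0.20). Rat 14 had the highest signal of the group for Slc5a10, Slc2a5, Khk and Tkfc alike, and without it 1 of the 9 genes was at an unadjusted p under 0.05. The mean over 9 markers of the S3 segment of the proximal tubule, set to 0 in CHS, was also highest in rat 14 of its group (0.63, against −0.43, 0.31 and 0.23 in rats 13, 15 and 16) and highest in rat 11 of the water rats (0.62, against −0.29, −0.40 and 0.06 in rats 9, 10 and 12). The mean of the fructose list, set to 0 in the same way, was 0.41, 0.59, 0.37 and 0.38 in rats 13 to 16. In rats 9 to 12 it was −0.04, −0.10, 0.11 and 0.02. Rat 13 thus had the lowest S3 mean of its group but not the lowest fructose list mean. In rat 7 on normal salt the S3 mean was 0.93 and the mean of the fructose list 0.71, the highest of all 16 rats for both. In rats 1, 3 and 4, on normal salt and water, the S3 mean was 0.58, 0.47 and 0.54 and that of the fructose list −0.09, −0.03 and −0.04. None of the 9 S3 markers was at an unadjusted p under 0.05 between FHS and CHS, and the part of segment content in the fructose values was not tested. The mean over the 10 S1 and S2 markers was −0.47 in rat 14. On the normal-salt diet the changes were 0.75 (SE 0.47) for Slc5a10, 1.13 (SE 0.53) for Slc2a5, 0.30 (SE 0.15) for Khk and 0.33 (SE 0.20) for Tkfc, and for none of them did the difference between the diets pass after adjustment.

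Of 11 genes of gluconeogenesis, 3 were higher at an unadjusted p under 0.05, where 4.43% of all gene symbols were, and the median of the list was 0.03. The 3 became 1 without rat 11. With arrays centred on their medians it was also 1, with a list median of −0.04. Pck1, which makes phosphoenolpyruvate from oxaloacetate and controls the entry to the pathway, had signals of 12.75, 12.82, 12.65 and 12.83 with water and 13.29, 12.92, 13.19 and 13.22 with fructose (change 0.39, SE 0.16). The catalytic subunit of glucose-6-phosphatase, G6pc1, which releases glucose at the end of the pathway, had 11.23, 12.07, 11.35 and 11.47 with water and 12.37, 11.46, 12.23 and 12.37 with fructose (change 0.58, SE 0.20). Rat 14 lay below rats 10 and 12, so that the groups overlapped. The pyruvate carboxylase Pc was at 10.49 to 10.79 and 10.97 to 11.04 (change 0.32, SE 0.13). Of the other members, Fbp1 at 0.03 and Pck2 at −0.09 lay near 0.

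Of 9 carriers of citrate, dicarboxylates and sulfate 2 were higher at an unadjusted p under 0.05, with a median of 0.02. Of 34 genes of amino acid and creatine metabolism 5 were higher and 3 lower, with a median of −0.04. Over all gene symbols 4.43% were higher and 4.79% lower at that threshold. Slc13a2, the apical sodium-coupled carrier of citrate and succinate, had signals of 9.58, 9.35, 9.07 and 9.64 with water and 10.23, 9.97, 9.99 and 10.20 with fructose (change 0.69, SE 0.13, adjusted p = 0.0967). Slc25a10, which exchanges dicarboxylates for phosphate across the inner mitochondrial membrane, was at 11.50 to 11.76 with water and 12.05 to 12.27 with fructose (change 0.46, SE 0.10, adjusted p = 0.142). Bhmt, which remethylates homocysteine with betaine, had 10.55, 10.22, 10.61 and 10.35 against 11.71, 10.88, 11.40 and 11.25 (change 0.88, SE 0.17, adjusted p = 0.105). Gamt, which methylates guanidinoacetate to creatine, had a change of 0.56 (SE 0.17). In all 4 genes the fructose rats lay above all water rats, where 2.68% of all gene symbols did so. Abat, the transaminase of the GABA shunt, was lower (change −0.39, SE 0.12).

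Few targets of PPAR-alpha and genes of fatty acid oxidation differed. Of 26 measured members 19 had a change above 0 with a median of 0.10, and 2 were higher at an unadjusted p under 0.05 (6 without rat 14). Over all gene symbols 51.1% were above 0 and 4.43% were higher at that threshold. Hacl1, the peroxisomal lyase that shortens 2-hydroxy and branched fatty acids, had signals of 8.95, 8.86, 9.17 and 8.78 with water and 9.45, 9.93, 9.80 and 9.58 with fructose (change 0.75, SE 0.13, adjusted p = 0.0947). Pex11a, which divides peroxisomes, was at 8.52 to 8.91 and 8.91 to 9.44 (change 0.35, SE 0.13). Mitochondrial members such as Cpt1a (0.12), Acadm (−0.06) and Pdk4 (0.19) did not reach that threshold. Of the 8 genes of ketone body handling 6 were below 0 and 2 above. At an unadjusted p under 0.05, 3 were lower and 1 was higher, where 4.79% and 4.43% of all gene symbols were. On the normal-salt diet 2 were higher and 0 lower at that threshold, with a median of 0.06. The monocarboxylate transporter Slc16a1, which carries ketone bodies and lactate, was at 9.39 to 9.71 with water and 7.65 to 9.11 with fructose (change −0.87, SE 0.31), and Bdh1, which interconverts the main ketone bodies, had a change of −0.64 (SE 0.26). Oxct1, which activates acetoacetate for oxidation, had a change of −0.21 (SE 0.08).

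Among 13 genes regulated by ChREBP, a transcription factor that responds to sugar, or genes of fatty acid synthesis, 11 had a change above 0, but only Pklr and Tm6sf2 were at an unadjusted p under 0.05. Of all gene symbols 51.1% were above 0 and 4.43% were higher at that threshold. Pklr, the pyruvate kinase of liver and kidney, had signals of 8.71, 8.56, 8.80 and 8.79 with water and 9.37, 10.79, 9.69 and 9.85 with fructose (change 1.21, SE 0.36). Tm6sf2, which helps to load lipid onto lipoproteins, was at 7.51 to 7.85 and 8.49 to 8.84 (change 0.92, SE 0.20, adjusted p = 0.152). The lipogenic enzymes Acaca (−0.12), Acly (0.15) and Scd (0.07) lay close to 0. In cholesterol synthesis 10 of 14 genes were below 0, 2 of them at an unadjusted p under 0.05, where 48.9% and 4.79% of all gene symbols were. The 2 became 0 to 3 with single rats left out (0 without rat 9 or 11). In the clock list 11 of 15 genes were above 0. At an unadjusted p under 0.05, 1 was higher and 1 lower, near the shares of all gene symbols (4.43% and 4.79%). The lower count ran from 0 to 1 with single rats left out. Ciart, a repressor of the circadian clock, had signals of 5.91 to 6.21 with water and 6.46 to 7.39 with fructose (change 0.87, SE 0.24). Clock itself had a change of −0.31 (SE 0.12). On the normal-salt diet these changes were 0.05 (SE 0.24) and 0.20 (SE 0.12), with an adjusted p of 0.808 for both differences between the diets.

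**Figure D3:**
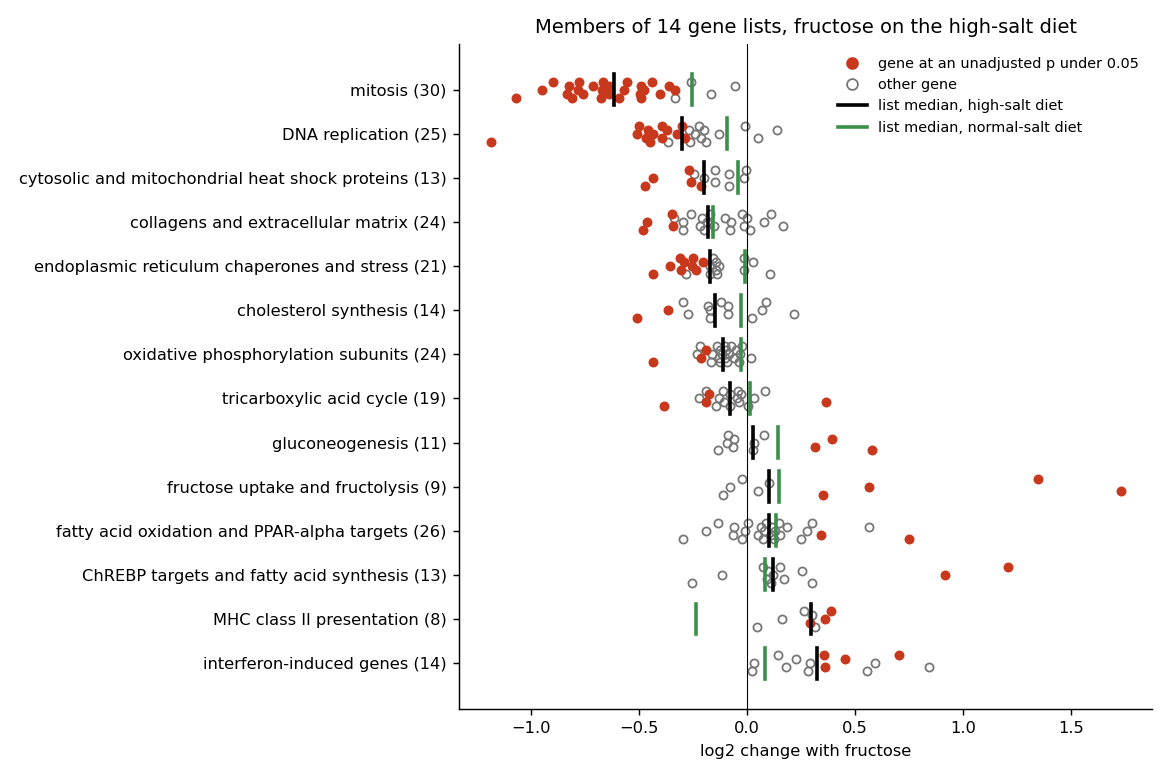
Log2 change with fructose on the high-salt diet (horizontal axis) of each measured member of 14 gene lists, filled where the unadjusted p was under 0.05, with the list median on the high-salt diet in black and on the normal-salt diet in green. The mitosis list has its medians at −0.61 and −0.25, and the MHC class II list has them on opposite sides of 0, at 0.30 and −0.23.

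Chaperones were also among the lists with medians below 0. In the cytosolic and mitochondrial heat shock list all 13 measured members had a change below 0, 5 of them at an unadjusted p under 0.05, with a median of −0.20. Over all gene symbols 48.9% were below 0 and 4.79% were lower at that threshold. This list and the endoplasmic reticulum list below are bright, with median signals of 10.21 and 9.55. Of the 4592 brightest gene symbols only 32.9% were above 0, with a median change of −0.06, and 406 were lower at that threshold. Hsp90aa1, the inducible HSP90, had signals of 10.89, 10.93, 10.90 and 10.98 with water and 10.54, 10.18, 10.52 and 10.57 with fructose (change −0.47, SE 0.10, adjusted p = 0.159). Its nucleotide exchange partner Hsph1 had a change of −0.44 (SE 0.13) and the HSP40 Dnaja1 of −0.26 (SE 0.10). In the endoplasmic reticulum 19 of 21 chaperones and stress genes were below 0, 9 of them at an unadjusted p under 0.05, with a median of −0.17. Sdf2l1 had a change of −0.43 (SE 0.13), the disulfide isomerase Pdia6 of −0.29 (SE 0.10), and the master chaperone Hspa5 (BiP) had signals of 12.59, 12.57, 12.47 and 12.79 with water and 12.52, 11.94, 12.42 and 12.32 with fructose (change −0.31, SE 0.13).

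The 9 at that threshold in the endoplasmic reticulum list became 3 without rat 14 and 2 without rat 12, and the 5 heat shock genes became 3 without rat 10, 12 or 14. Rat 14 was the lowest rat for Hspa5 and Hsp90aa1, and the medians without it were −0.12 for that list and −0.11 for the heat shock list. The mean over each list, set to 0 in CHS, was −0.34 to −0.13 in the 4 FHS rats for heat shock proteins and −0.38 to −0.06 for the endoplasmic reticulum. The 8 rats on the normal-salt diet, with or without fructose, were at −0.22 to −0.13 and −0.42 to −0.22. For heat shock proteins the CHS rats, at −0.02 to 0.02, were thus above all 12 others, and on the normal-salt diet the medians of both lists with fructose were −0.04 and −0.01.

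**Figure D4:**
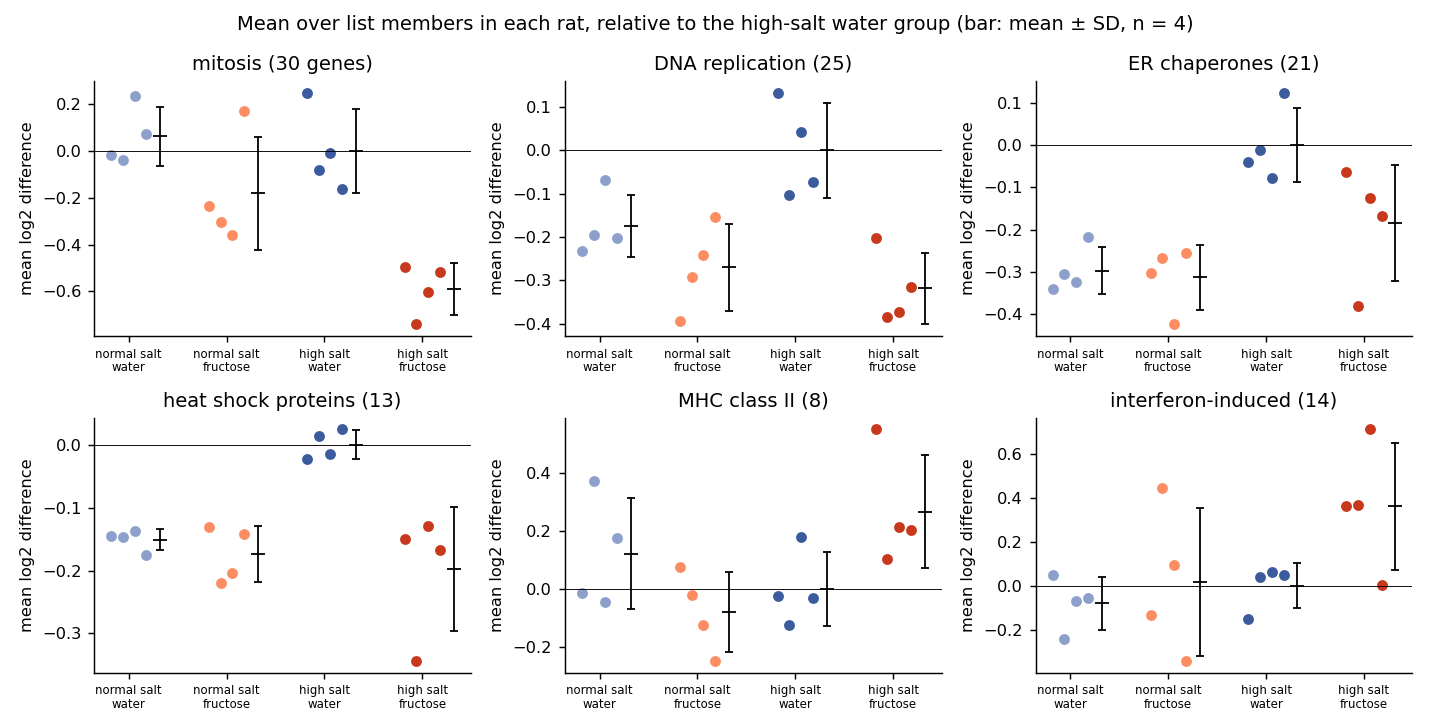
Mean log2 difference over the members of 6 gene lists (vertical axes) in each of the 16 rats, relative to the mean of the high-salt water group, with group mean and SD (n = 4). For mitosis the 4 FHS rats, at −0.74 to −0.50, lie below all others, whereas for heat shock proteins the 4 CHS rats lie above all others.

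Among immune genes, all 8 members of class II antigen presentation had a change above 0, with a median of 0.30, and 3 were higher at an unadjusted p under 0.05. Of all gene symbols 51.1% were above 0 and 4.43% were higher at that threshold. With arrays centred on their medians 7 of the 8 were above 0 and 1 was higher at that threshold. The invariant chain Cd74 had signals of 11.57, 11.60, 11.90 and 11.78 with water and 12.24, 11.88, 11.93 and 11.97 with fructose, so that rat 11 overlapped the fructose rats (change 0.29, SE 0.12). RT1-DMa, which loads peptides, had a change of 0.39 (SE 0.14) and RT1-Ba of 0.36 (SE 0.16). No class II gene had groups apart, and 0 were at that threshold without rat 13 and 1 without rat 9 or 10. On the normal-salt diet the median was −0.23, and 4 of the 8 differed between the diets at an unadjusted p under 0.05 and none after adjustment. Of 14 macrophage markers 12 were above 0 with a median of 0.13, and their mean signal was 7.14 to 7.36 in CHS and 7.15 to 7.46 in FHS. Cx3cr1, the fractalkine receptor of resident macrophages, had signals of 7.08, 7.01, 7.17 and 7.14 with water and 7.71, 7.53, 7.64 and 7.41 with fructose (change 0.47, SE 0.09, adjusted p = 0.105). The 8 rats on the normal-salt diet were at 7.63 to 7.98, so that the water rats on high salt were the lowest of all 16. Mrc1, a mannose receptor of macrophages, had a change of −0.45 (SE 0.17). The part of macrophage number in the class II values was not tested.

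All 14 interferon-induced genes had a change above 0, with a median of 0.32, and 4 were higher at an unadjusted p under 0.05. Over all gene symbols 51.1% were above 0 and 4.43% were higher at that threshold. With arrays centred on their medians 12 of the 14 were above 0 and 2 were higher at that threshold. Irf7, the regulator that amplifies the interferon response, had signals of 5.81, 6.25, 6.49 and 6.42 with water and 6.75, 7.10, 7.55 and 6.39 with fructose (change 0.70, SE 0.28). Rat 16 lay among the water rats, and Ifit2 and Ifi44 overlapped as well. The number at an unadjusted p under 0.05 ran from 0 without rat 15 to 10 without rat 16.

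Genes of collagen and matrix lay lower, 19 of 24 below 0 with a median of −0.18, and 4 were lower at an unadjusted p under 0.05. Over all gene symbols 48.9% were below 0 and 4.79% were lower at that threshold. Col4a2, a chain of basement membrane collagen, had signals of 8.03, 7.97, 7.77 and 7.82 with water and 7.29, 7.76, 7.09 and 7.52 with fructose (change −0.48, SE 0.13). The fibrillar chain Col1a1 had a change of −0.46 (SE 0.19), the collagen crosslinking oxidase Loxl2 of −0.34 (SE 0.09) and the gelatinase Mmp2 of −0.34 (SE 0.11). Rat 14 was the highest fructose rat for Col4a2 and Col1a1, and 11 of the 24 genes were lower at that threshold without it. The list median was −0.16 on the normal-salt diet. Prelp, a proteoglycan that anchors basement membranes, went the other way, with 7.92, 7.85, 7.57 and 7.71 against 8.21, 8.40, 8.69 and 8.48 (change 0.68, SE 0.13, adjusted p = 0.0983). The growth factor gene Igf1 had a change of −0.54 (SE 0.15). The 7 measured markers of fibroblasts, pericytes and smooth muscle had a median of 0.05.

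Of 24 subunits of oxidative phosphorylation 23 were below 0, by little. The median was −0.11, set against −0.06 over the 4592 brightest gene symbols, where 32.9% were above 0. At an unadjusted p under 0.05, 3 of the 24 were lower, where 406 of those 4592 gene symbols were. Uqcrb, a subunit of complex III, was at 7.33 to 7.53 with water and 6.67 to 7.24 with fructose (change −0.44, SE 0.12).

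Few genes of sodium transport and its hormones differed. Tissue kallikrein Klk1, a protease of the connecting tubule, was at 11.45 to 11.77 with water and 11.004 to 11.22 with fructose (change −0.50, SE 0.19), and the sodium channel subunit Scnn1g had a change of 0.29 (SE 0.12). Agtrap, which promotes internalization of the angiotensin receptor, was at 9.72 to 10.03 and 10.08 to 10.52 (change 0.41, SE 0.11). Klk1 and Scnn1g were the 2 of 16 distal sodium genes, and Agtrap the 1 of 10 genes of the renin-angiotensin system, at an unadjusted p under 0.05, shares close to those of all gene symbols (4.43% higher and 4.79% lower). The prostaglandin transporter Slco2a1 had a change of 0.80 (SE 0.20). Aqp4, a basolateral water channel, had signals of 8.01, 7.49, 7.77 and 7.92 with water and 7.02, 7.49, 6.97 and 7.36 with fructose (change −0.59, SE 0.14). The heme oxygenase Hmox1 had a change of −0.63 (SE 0.22) and the inositol oxygenase Miox of −0.22 (SE 0.08).

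The remaining genes of smallest p belong to no list. Lower were Cys1, a protein of the primary cilium, with 8.08, 7.93, 8.02 and 8.05 against 7.57, 7.33, 7.57 and 7.67 (change −0.49, SE 0.09), the small GTPase Rhoq with 7.24 to 7.50 against 6.59 to 6.98 (−0.58, SE 0.10), Setsip (−0.53, SE 0.09) and the protease inhibitor Pzp (−0.64, SE 0.13). Higher were the ubiquitin ligase subunit Fbxo21 with 8.83 to 9.004 against 9.28 to 9.47 (0.45, SE 0.09), Krtap14l (0.51, SE 0.09), Dlgap5l2 (0.66, SE 0.13), Dcm5 (0.44, SE 0.09), the olfactory receptor genes Or7h8 (0.63, SE 0.12) and Or5ae1 (0.74, SE 0.15) and the microRNA gene Mir338 (0.63, SE 0.14). These dim classes, picked after their values were seen, lay above 0 as a whole, with 834 of 1183 olfactory receptor genes (107 higher and 9 lower at an unadjusted p under 0.05, median 0.10) and 255 of 363 microRNA genes (41 higher and 1 lower, median 0.09). Of the 4592 dimmest gene symbols 65.4% were above 0, with a median of 0.06. At that threshold 265 of them were higher and 41 lower, so the counts of these classes have to be read against the dimmest gene symbols. With arrays centred on their medians the counts of these classes above 0 were 663 and 194. Between the diets the smallest p values were those of Gpm6a, Cx3cr1 and Nlrp4al1, above 0, and of Rhoq, Zbtb5 and Nalf2, below 0. The membrane glycoprotein Gpm6a, for example, had a change of 0.49 (SE 0.21) on high salt and −1.01 (SE 0.21) on normal salt, and none of the 6 passed after adjustment (adjusted p of 0.599 to 0.761).

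**Figure D5:**
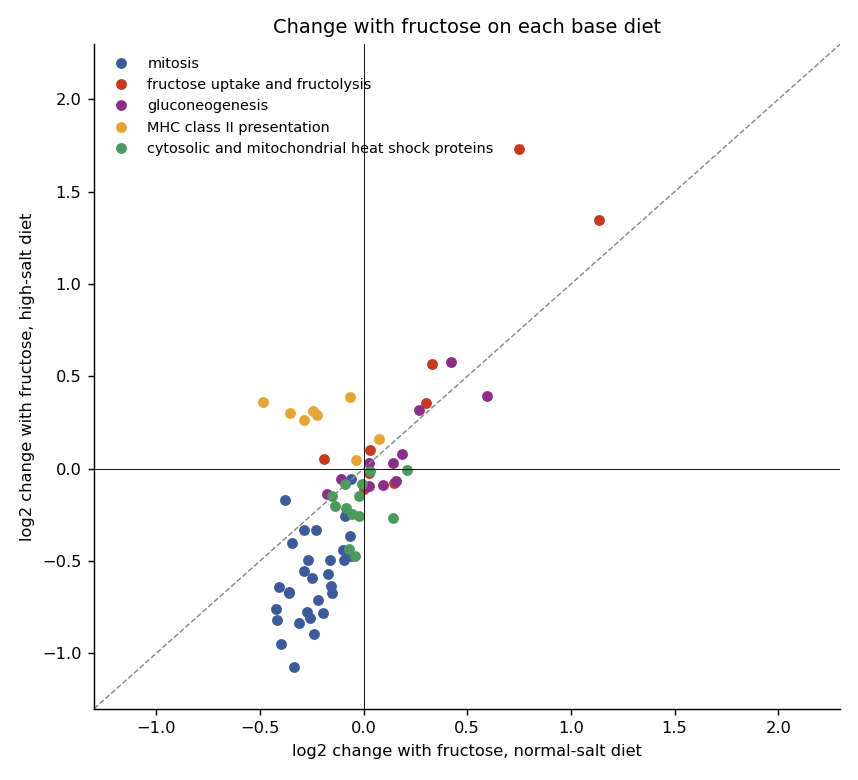
Log2 change with fructose on the high-salt diet (vertical axis) against that on the normal-salt diet (horizontal axis) for members of 5 gene lists, with a dashed line of equal change. Most mitosis genes lie below the line and below 0 on both axes, and 7 of the 8 class II genes lie in the upper left.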

How the data were processed

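Total RNA of the renal cortex of each rat was labelled and hybridized to an Affymetrix RaGene 2.0 ST array, and the authors made the deposited log2 values by RMA in Affymetrix Expression Console. Gene symbols came from the platform annotation (18765 TranscriptClusterIDs with 1 symbol, 254 of them named from the study's tables, among them G6pc1, 497 with several and 17423 with none), updated through RefSeq. Each of the 36685 TranscriptClusterIDs entered a linear model of 4 group means over 16 arrays (limma 3.58.1, R 4.3.3), and 2-sided p-values were adjusted by Benjamini and Hochberg. In data simulated for this comparison, with 36685 TranscriptClusterIDs of which 100 were changed by a log2 difference of 1 and 100 by 2, 73 and 96 were called, with 13 false calls. The simulated noise was normal and independent between TranscriptClusterIDs, with no array shift or outlying rat. These counts therefore check the fit and do not give the share of real changes found here. Genes named are the 15 higher and 15 lower of smallest p, up to 4 of smallest p in each of 46 lists (54 of 641 entries were not found), the fructose and glucose genes Slc2a5, Khk, Tkfc, Pck1 and G6pc1, and, for the test between diets, 3 higher and 3 lower. Ttk, Aurka, Slc34a1, Lrp2, Fbp1, Pck2, Cpt1a, Acadm, Pdk4, Acaca, Acly and Scd were named after their values were seen. Some genes that the rule takes in are not reported here. Members, lists and tests were chosen with earlier results of these data known, so no list is independent support. Lists are described by counts and medians, and no set test was run. Fold changes compare the same TranscriptClusterID only, and the number of arrays limits the precision. Python 3.11.15, pandas 2.3.3 and scipy 1.17.1 were used for tables and the exact permutation test.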

Additional observations from a re-analysis of the deposited data

Results flagged for a closer look

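In 14 of the 186 groups of 4 rats checked for the genes named here and the array medians, 1 rat lay far from the other 3 by Dixon's criterion (gap over range in parentheses), and chance alone gives about 1 in 20. Rat 14 of FHS was that rat for 5 genes. It was highest for Tkfc at 11.46 against 10.88 to 10.96 (0.85), for Slc2a5 at 10.79 against 9.12 to 9.40 (0.835) and for Khk at 11.38 against 11.02 to 11.08 (0.837). It was lowest for G6pc1 at 11.46 against 12.23 to 12.37 (0.843) and for Hsp90aa1 at 10.18 against 10.52 to 10.57 (0.87). The same array had the lowest correlation with its group.

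Rat 12 of CHS was highest for Sdf2l1 at 7.51 against 6.96 to 6.99 (0.941) and for Manf at 9.03 against 8.68 to 8.73 (0.842). Rat 11 of CHS was lowest for Abat at 10.14 against 10.25 to 10.27 (0.831) and highest for RT1-DMa at 8.10 against 7.71 to 7.77 (0.862) and for Ifi44 at 6.89 against 6.42 to 6.45 (0.951). Rat 10 of CHS was highest for Pck2 at 7.34 against 7.13 to 7.16 (0.83). Rat 9 of CHS was lowest for Ifit3 at 4.69 against 5.09 to 5.16 (0.853). Rat 13 of FHS was highest for RT1-Da at 10.53 against 9.94 to 10.02 (0.864) and lowest for Hmox1 at 5.41 against 5.73 to 5.79 (0.84). No difference between the base diets passed an adjusted p of 0.05 for a named gene.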

How the results depend on the processing

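Of 92 genes named with values, 84 of which were fitted when dim TranscriptClusterIDs were left out, 90 kept their direction under each alternative they entered. Near 0, Fbp1 was at −0.0405 with centred arrays and Aurka at −0.1256 to 0.0131 with single rats left out (0.0131 without rat 12, 0.0077 without rat 15). On the high-salt diet, calls numbered 22 without dim TranscriptClusterIDs, 25 with 1 row per gene symbol, 3 with an intensity trend and 0 with the 8 high-salt arrays alone or the methods' ANOVA (2828 at an unadjusted p under 0.05), and 0 to 4 with single rats left out, 0 being without rat 13, 3 without rat 11 or 12, 4 without rat 15 and 2 without rat 16. At an adjusted p under 0.10 it was 75, 59, 5 with median-centred arrays, 0 and 0, and 1 to 46 with rats left out (46 without rat 8). Unadjusted, it was 2268 without dim TranscriptClusterIDs and 1974 with 1 row per gene symbol, against 3530, and 2791 to 4315 with rats left out. Of those calls 62.9% were higher, against 48.0% with quantile normalization and 29.5% with centred arrays, so the balance of directions depends on the scaling, while all 30 mitosis genes stayed below 0 under both (medians −0.66 and −0.69). On normal salt 0 were called in every setting (1521 unadjusted, 676 without dim TranscriptClusterIDs, 774 with 1 row per symbol, by limma). For the difference between the diets 0 were called, 0 to 1 with rats left out (1 without rat 11 or 16), and 2235 unadjusted, 1096 and 1076 under those 2 filters. The difference of array medians was 0.05 to 0.09 with rats left out. No paired analysis was possible because every rat has its own number.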
